A study of Mus musculus with 4 samples.

Results

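Major urinary proteins are small lipocalins, beta-barrel carriers that the liver secretes into blood and the kidney passes into urine, where they bind volatile pheromones. Their genes (Mup) form a tandem array, and they are among the most strongly transcribed genes of the male liver, under the control of pulsatile growth hormone acting through STAT5b. Mup20 encodes darcin, a male pheromone that is attractive in itself, and circulating MUP1 has been linked to glucose and lipid metabolism. The members described here are the protein-coding genes whose GENCODE M21 symbol is Mup followed by a number, or Mup-ps with a protein-coding type. The rule found 22 genes among the 22079 genes of the deposited table. No level is given for the 27 Mup pseudogenes of the annotation, whose sequences did enter the comparison of sequences.

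The libraries are mRNA sequencing libraries of primary hepatocytes from C57BL/6 mice, all males and 8 weeks old. One group lacked Prom1 (genotype Prom1-/-, here KO, n = 2 biological replicates) and the other was wild type (WT, n = 2). All 4 cultures had first attached in a medium with serum and dexamethasone and then spent a night without serum. Values are FPKM, fragments scaled to transcript length and to sequencing depth, so levels of different genes can be compared. For Prom1 itself the table lists 0 for KO 1 and 0.0458 FPKM for KO 2, against WT values of 0.571 and 1.22 FPKM. Each library was estimated to hold 14800000 to 18400000 fragments, at which 1 FPKM of a 900-base transcript rests on 10.4 to 12.9 fragments. Alb was listed at 0 in WT 2 and at 25551 to 32670 FPKM in the other libraries, the only gene listed at 0 in 1 library and above 100 FPKM in another, so shares of a library total were taken without Alb. All 10 hepatocyte markers passed the filter on low values, and none but Alb was listed at 0.

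All 22 members lie in one block of chromosome 4, from 59956804 to 62150863 in GRCm38 (mm10), and 21 of them are on the minus strand. Their sequences fall into 2 kinds. For 16 members, between 0% and 40.6% of the 100-base windows of the longest coding transcript occur in no other Mup gene or pseudogene. Any pair of these transcripts is 98.3% to 99.8% identical over aligned bases, with gaps left out here and below. These 16 members are called near-identical below. The other 6, Mup3, Mup4, Mup5, Mup6, Mup20 and Mup21, have 61.2% to 100% own windows and are called distinct; among them Mup3 and Mup21 are closest, at 96.1% identity. Mup17 (40.6%) and Mup20 (61.2%) lie nearest to the limit of 50% on either side, but Mup20 shares windows with pseudogenes only and has 100% own windows among the coding members. For Mup19 and Mup22 no window was their own, and for every near-identical member 19.2% to 53.5% of windows occur in more than 10 Mup genes. Fragments from such windows were shared out among genes in a way the sources used here do not describe, so the level of a single near-identical member is uncertain and sums are given as well.

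The promoters are alike as well, and 5 of them are shown because they belong to genes whose levels lie far apart. Mup3 is the highest member of the cluster, Mup21 its closest relative at a middle level, Mup17 and Mup18 a near-identical pair at a middle and a low level, and Mup4 was hardly detected. The 250 bases before each RefSeq start (GRCm38.p6) are written 5' to 3' on the minus strand, with TATATAA and ATCAAT in capitals. They lie at chr4:62087318-62087567 (Mup3), chr4:62150842-62151091 (Mup21), chr4:61595833-61596082 (Mup17), chr4:61674095-61674344 (Mup18) and chr4:59960668-59960917 (Mup4).
Mup3: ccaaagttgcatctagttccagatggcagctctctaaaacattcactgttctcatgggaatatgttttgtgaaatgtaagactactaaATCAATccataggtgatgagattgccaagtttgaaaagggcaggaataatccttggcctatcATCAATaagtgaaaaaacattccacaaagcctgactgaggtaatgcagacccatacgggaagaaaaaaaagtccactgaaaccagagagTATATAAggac
Mup21: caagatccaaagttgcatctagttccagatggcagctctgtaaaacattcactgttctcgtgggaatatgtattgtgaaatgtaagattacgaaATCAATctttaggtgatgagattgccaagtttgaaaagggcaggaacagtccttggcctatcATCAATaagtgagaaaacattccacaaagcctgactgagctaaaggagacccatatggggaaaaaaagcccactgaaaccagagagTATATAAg
Mup17: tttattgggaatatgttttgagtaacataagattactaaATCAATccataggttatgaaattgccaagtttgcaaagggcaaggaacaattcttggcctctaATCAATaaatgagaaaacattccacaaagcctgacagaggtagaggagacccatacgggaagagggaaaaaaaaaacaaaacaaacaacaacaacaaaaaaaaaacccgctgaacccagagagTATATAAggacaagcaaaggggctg
Mup18: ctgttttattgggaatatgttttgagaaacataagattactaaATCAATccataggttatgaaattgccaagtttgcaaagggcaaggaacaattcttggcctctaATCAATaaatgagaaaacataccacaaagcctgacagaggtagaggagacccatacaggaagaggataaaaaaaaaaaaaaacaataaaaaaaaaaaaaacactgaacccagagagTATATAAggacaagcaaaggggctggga
Mup4: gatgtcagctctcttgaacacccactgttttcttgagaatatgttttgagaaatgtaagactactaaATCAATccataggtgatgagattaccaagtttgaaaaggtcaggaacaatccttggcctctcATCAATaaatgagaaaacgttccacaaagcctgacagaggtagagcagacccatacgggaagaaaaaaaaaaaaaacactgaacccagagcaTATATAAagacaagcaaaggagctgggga
TATATAA has the sequence of a TATA box. It begins 11 bases before the RefSeq start for Mup3 and 8 for Mup21. For Mup17, Mup18 and Mup4 it begins 25, 28 and 29 bases before it, so the windows shown do not end at like places. ATCAAT is the core bound by ONECUT factors such as HNF6. Onecut1, the gene of HNF6, stood at 0.353 and 0.398 FPKM in KO and at 0.587 and 0.567 FPKM in WT. It lay under the filter on low values, and binding of any factor was not tested. TATATAA and ATCAAT were chosen after these windows were seen, and the RefSeq table held a promoter for 14 members. The windows resemble each other, so the 14 do not count as independent promoters. ATCAAT on either strand occurred in all 14, against 6.72% of 32851 mouse promoter windows of the same length, and TATATAA on either strand in 11 of 14, against 3.04%. The 3 without it, Mup7, Mup11 and Mup14, have RefSeq starts further upstream, so their windows end before the place where the others hold it. The palindrome TTCNNNGAA, the form bound by STAT5, occurred in 0 of 14 windows, against 7.02% of all. The motifs do not overlap each other in the windows shown. Over the stretch of 187 bases that ends with the TATA box, identity was counted over aligned bases, with gaps left out. Mup17 and Mup18 were 95% identical (180 aligned), Mup3 and Mup21 92.4% (184 aligned), and Mup3 and Mup4 90.8% (184 aligned).

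Levels spanned the range from the most abundant transcripts of these cells to the limit of detection. Mup3 stood at 5729 FPKM in KO 1, 8493 in KO 2, 6050 in WT 1 and 8770 in WT 2. Among all genes it had rank 5 and 4 in the KO libraries and rank 4 and 3 in the WT libraries. Alb stood above Mup3 in every library but WT 2, where Alb was listed at 0, so the rank in WT 2 is not comparable with the others. Mup7, the highest near-identical member, stood at 4337 and 6985 FPKM in KO and at 5896 and 4326 FPKM in WT. Mup20, the darcin gene, stood at 2711 and 3332 FPKM in KO and at 2521 and 3099 FPKM in WT. In each of the 4 libraries Mup3, Mup7, Mup20, Mup14 and Mup11 were the 5 highest members in this order, although the ranges of Mup3 and Mup7 overlapped across libraries. Mup14 stood at 1030 and 1949 FPKM in KO and at 1677 and 1352 FPKM in WT, and Mup11 at 370 and 660 FPKM in KO and at 556 and 269 FPKM in WT. Mup3, Mup7 and Mup20 together held 84.9% and 82.9% of the summed Mup level in KO 1 and KO 2, and 78.5% and 87.9% in WT 1 and WT 2.

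**Figure D1:**
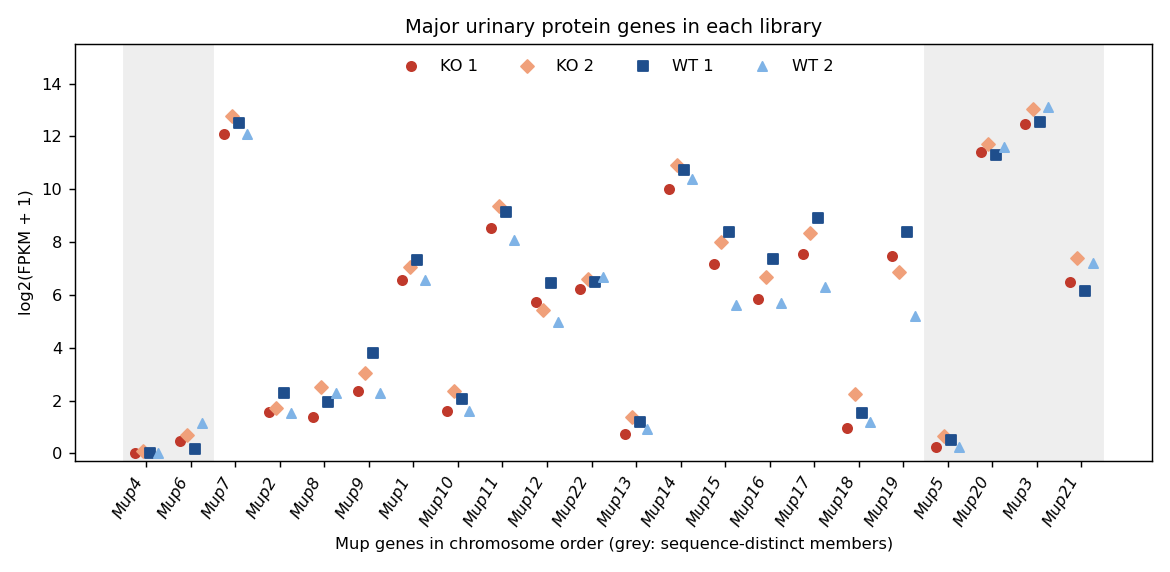
Level of each of the 22 Mup genes on the log2(FPKM + 1) scale (vertical axis), in chromosome order from left to right (horizontal axis); each symbol is 1 library and grey bands mark the 6 distinct members. Mup7, Mup20 and Mup3 stand above all others, and for no member with a mean of at least 1 FPKM do both KO libraries lie on one side of both WT libraries.

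Below these, 9 members had means of 50 to 500 FPKM: Mup11, Mup17, Mup15, Mup19, Mup1, Mup21, Mup16, Mup22 and Mup12. Their order differed between libraries. Mup17, for example, had rank 6 among the members in KO 1, KO 2 and WT 1 and rank 9 in WT 2, while Mup21 had rank 10 and 8 in KO 1 and KO 2, 13 in WT 1 and 6 in WT 2. Another 6, Mup9, Mup8, Mup10, Mup2, Mup18 and Mup13, had means of 1 to 10 FPKM and single values between 0.668 and 13.0 FPKM. All 6 are near-identical to far more abundant members, and what share of their fragments belongs to those was not tested. Neighbouring members in this low range overlapped in their values. Mup6 (0.391 and 0.610 FPKM in KO, 0.133 and 1.24 FPKM in WT) and Mup5 (0.171 and 0.565 FPKM in KO, 0.441 and 0.184 FPKM in WT), both distinct, stayed under a mean of 1 FPKM. Mup4 was listed at 0 in KO 1 and in both WT libraries and stood at 0.0674 FPKM in KO 2. Mup4 and Mup5 are known in mice for expression outside the liver, in nasal and other secretory glands.

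The comparison of KO with WT asks how the loss of Prom1 changes the transcriptome of cultured hepatocytes, and for the Mup cluster the genotypes did not separate. Summed over the 22 members, the level was 15058 FPKM in KO 1 and 22687 FPKM in KO 2, against 18435 FPKM in WT 1 and 18418 FPKM in WT 2. The KO libraries thus lay on either side of the WT libraries, at a mean of 18872 ± 5394 FPKM in KO and 18426 ± 11.6 FPKM in WT (SD, n = 2 each), a ratio of 1.02. Without KO 1 the log2 difference of the sum was 0.30 and without KO 2 it was -0.29, so either KO library alone would set its sign. With so few libraries no exact permutation test can reach a p of 0.05, and none was run on the sum. The cluster held 3.18% and 4.41% of the FPKM total without Alb in KO 1 and KO 2, and 3.73% and 3.54% in WT 1 and WT 2. In bulk libraries such as these, fewer hepatocytes and less Mup RNA per hepatocyte cannot be told apart.

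**Figure D2:**
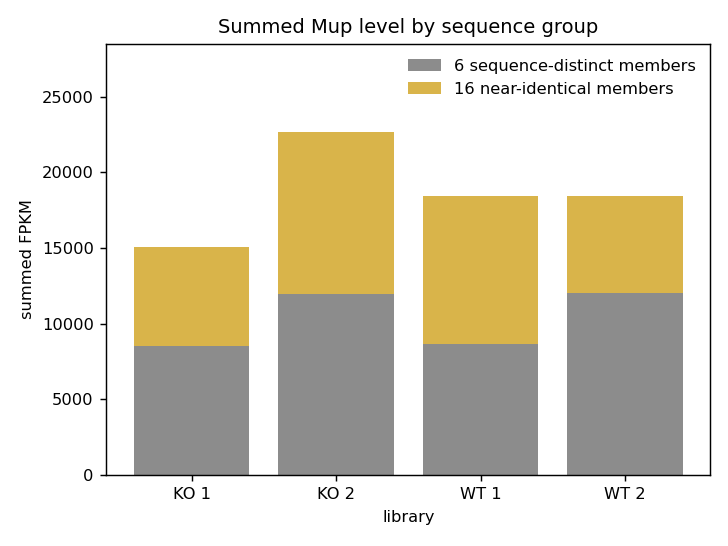
Summed FPKM (vertical axis) of the 16 near-identical and the 6 distinct members, stacked, in each of the 4 libraries. The full bars run from 15058 in KO 1 to 22687 in KO 2, and the bars of WT 1 and WT 2 are nearly equal in height while the near-identical part is 9794 in WT 1 and 6401 in WT 2.

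Member by member, no gene of the cluster passed the test between genotypes. Of the 22 members, 19 had a mean of at least 1 FPKM and were tested with all genes at that level. By limma, 0 of the 19 had a Benjamini-Hochberg adjusted p under 0.05, as did 0% of the 10407 genes tested, and the lowest adjusted p of a member was 0.828. At an unadjusted p under 0.05 there were also 0 members, against 7.29% of all genes tested. That 0 was not stable when 1 library was left out. Such fits leave a genotype with 1 library, so counts of members from them are not given. On the log2(FPKM + 1) scale, which understates the change of low genes, 9 members were higher and 10 lower in KO, and the median difference was -0.02, beside 0.00 for all genes tested. The values of the genotypes were free of overlap for 0 of the 19, against 38.1% of all genes tested. The members share fragments and libraries and are not independent of each other.

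The precision differed between members. Mup3 differed by -0.06 between KO and WT (SE 0.31, 95% interval -0.82 to 0.70, limma adjusted p = 0.981). For Mup20 the difference was 0.10 (SE 0.21, 95% interval -0.40 to 0.61, limma adjusted p = 0.939), and for Mup7 it was 0.12 (SE 0.31, 95% interval -0.63 to 0.88, limma adjusted p = 0.953). The narrowest interval was that of Mup22, from -0.57 to 0.22 around a difference of -0.17. Mup22 has 0% own windows, and the interval leaves out the uncertainty of how shared fragments were assigned. Mup22 stood at 73.2 and 97.5 FPKM in KO and at 89.2 and 102 FPKM in WT. The widest belonged to Mup19, from -1.91 to 2.70 around 0.39, so that even a change of several fold in either direction lies inside it. Every interval of the 19 included 0. These intervals do not show that a member is unaffected by the loss of Prom1.

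**Figure D3:**
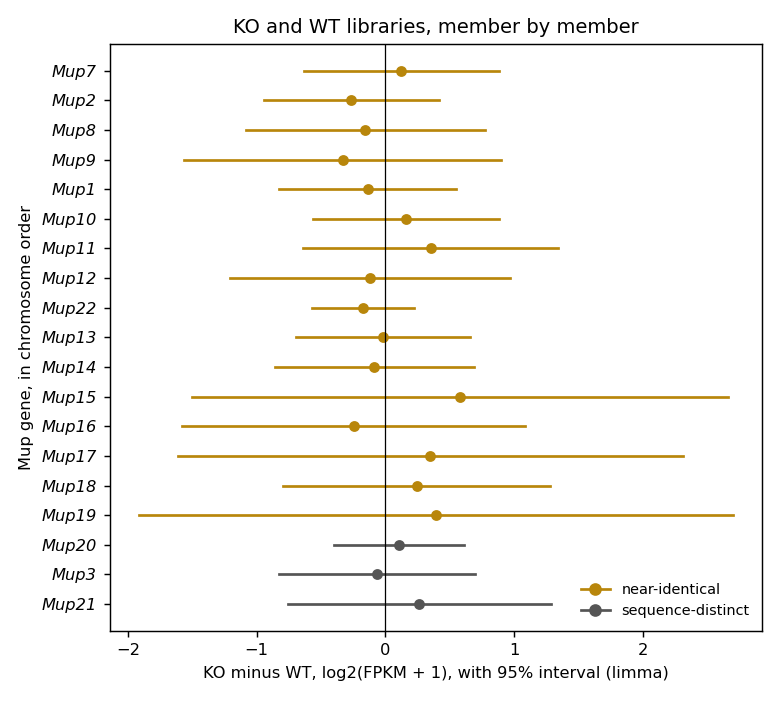
Difference KO minus WT on the log2(FPKM + 1) scale (horizontal axis) for the 19 tested members in chromosome order (vertical axis); points are limma estimates and lines their 95% intervals, n = 2 libraries per genotype. Every line crosses 0, and those of Mup15, Mup17 and Mup19 are the widest.

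Libraries of the same genotype stood apart for most members. KO 2 exceeded KO 1 for 20 of the 22 members, in both sequence kinds, and the exceptions were Mup12 and Mup19. The share of all genes in that direction is not given. The FPKM total without Alb was also higher in KO 2, at 514297 against 472797 in KO 1. Summed male-biased liver genes other than Mup were higher in KO 2 too, and summed endothelial and stellate markers were lower. The near-identical members summed to 10695 FPKM in KO 2 and 6529 FPKM in KO 1, and the distinct members to 11992 FPKM in KO 2 and 8529 FPKM in KO 1. By more than 0.5 on the log2(FPKM + 1) scale, KO 2 was higher for 14 of 19 tested members, against 5.05% of all genes tested. Differences over 1 on that scale were seen for Mup8 and Mup18, 2 of the 19, against 0.951% of all genes tested; both are low members. These values compare single libraries, so they carry no test.

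The 2 WT libraries differed in another way: their sums were nearly equal, but the parts of the cluster were not. The near-identical members summed to 9794 FPKM in WT 1 and 6401 FPKM in WT 2, and 14 of the 16 were higher in WT 1. Mup15, Mup17 and Mup19 stood furthest apart. Mup15 had 143 and 259 FPKM in KO 1 and KO 2, and its WT values were 337 and 48.6 FPKM, 6.94-fold apart. For Mup17 the KO values were 185 and 325 FPKM and the WT values 477 and 77.4 FPKM, 6.16-fold apart. For Mup19 the KO values were 177 and 117 FPKM and the WT values 329 and 35.9 FPKM, 9.14-fold apart. For all 3 the KO libraries lay between the WT libraries. Mup16, which lies between Mup15 and Mup17 on the chromosome, was 3.18-fold higher in WT 1, and Mup18, between Mup17 and Mup19, was 1.49-fold higher at 1.91 and 1.28 FPKM. Outside this stretch, Mup9 was 3.36-fold, Mup12 2.81-fold, Mup2 2.08-fold and Mup11 2.06-fold higher in WT 1. Of the near-identical members, only Mup22 and Mup8 were higher in WT 2.

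The distinct members with high values went the other way. Mup3, Mup20 and Mup21 summed to 8640 FPKM in WT 1 and 12015 FPKM in WT 2. Mup21 stood at 88.8 and 166 FPKM in KO 1 and KO 2, while its WT values were 69.4 and 147 FPKM. The near-identical members held 43.4% and 47.1% of the Mup sum in KO 1 and KO 2, between the WT shares of 53.1% in WT 1 and 34.8% in WT 2. By more than 0.5 on the log2(FPKM + 1) scale, 11 of the 19 tested members differed between the WT libraries, against 5.4% of all genes tested. Of the 19, 8 differed by more than 1 on the log2(FPKM + 1) scale between the WT libraries, against 0.653% of all genes tested, with 7 higher in WT 1 and Mup21 higher in WT 2. Mup15, Mup16, Mup17 and Mup19 have 0% to 40.6% own windows, and how their fragments were shared out could not be checked in these files. Mup3 and Mup21, with 97.1% and 95.5% own windows, rest on fragments of their own for most of their length.

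**Figure D4:**
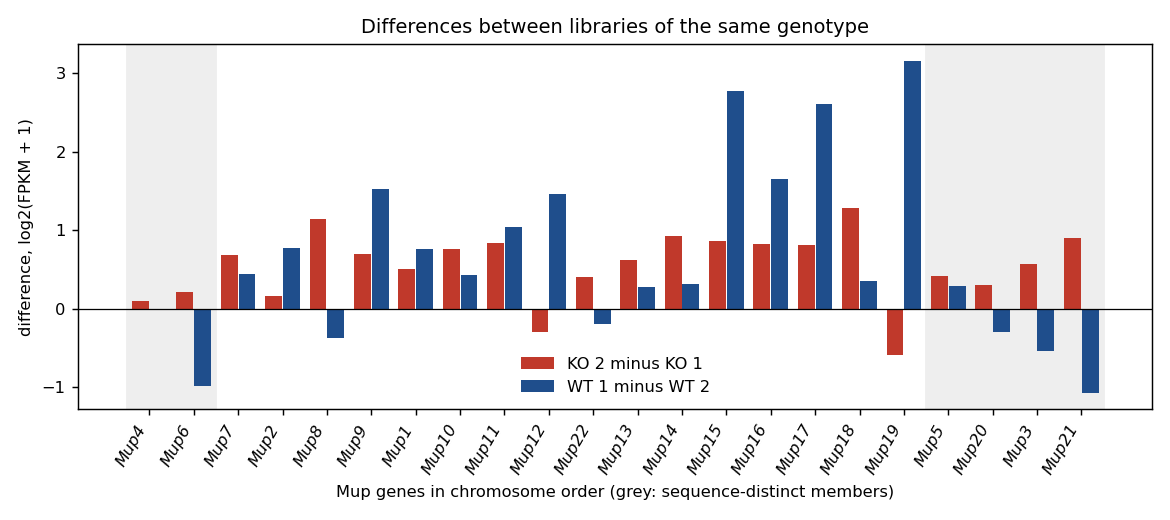
Difference between libraries of the same genotype on the log2(FPKM + 1) scale (vertical axis) for the 22 members in chromosome order (horizontal axis); red bars are KO 2 minus KO 1, blue bars WT 1 minus WT 2, and grey bands mark distinct members. Blue bars are tallest at Mup15, Mup17 and Mup19 and point down at Mup20, Mup3 and Mup21, whereas red bars point up at all members but Mup12 and Mup19.

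Markers of other liver cells moved between the same libraries. Sinusoidal endothelial markers (9 of 10 tested) summed to 76.8 FPKM in KO 1 and 39.1 FPKM in KO 2, and to 52.7 and 49.6 FPKM in WT 1 and WT 2. Stellate cell markers (4 of 10 tested) summed to 52.8 and 21.9 FPKM in KO and to 32.0 and 33.1 FPKM in WT. KO 1 was thus highest in both lists and lowest in summed Mup level, KO 2 the reverse, and the WT libraries were close to each other in all 3 quantities. No marker of either list was listed at 0. Kupffer cell markers summed to 418 and 491 FPKM in KO and to 377 and 372 FPKM in WT, nearly all of it Cd68, and the other 9 summed to 25.7 and 25.8 FPKM in KO and to 19.4 and 20.7 FPKM in WT. Of the 8 cholangiocyte markers, which summed to 41.6 and 28.3 FPKM in KO and to 41.6 and 37.5 FPKM in WT, Krt7, Epcam and Cftr were among those listed at 0 in at least 1 library. The sum of the 10 hepatocyte markers is unusable, since Alb dominates it. Each was therefore taken on the log2(FPKM + 1) scale relative to its own mean over the libraries. The median of these values was -0.24 in KO 1, 0.04 in KO 2, -0.03 in WT 1 and 0.17 in WT 2. By this measure the WT libraries were not close to each other. The part of other cells in the Mup levels was not tested. Hepatocyte secretory genes are an internal yardstick: relative to the summed level of 12 of them (Ttr, Apoa1, Apoa2, Apoc3, Trf, Serpina1a to Serpina1e, Fgb and Ahsg), the log2 difference of the Mup sum between KO and WT was 0.07. Relative to all 24 listed without Alb it was 0.09.

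Regulators of Mup genes and other genes of the male liver were read from the same fit, and the count at an unadjusted p under 0.05 is given beside each count of calls. Over all genes tested the median difference was 0.00, 0% were called, 7.29% had an unadjusted p under 0.05, and for 38.1% the genotypes did not overlap. In the growth hormone and STAT5 axis, 14 of 15 genes were tested, 3 were higher and 11 lower in KO, and 0 were called, with 1 at an unadjusted p under 0.05, near the 7.29% of all genes (median difference -0.03, against 0.00). Stat5b, the transducer of growth hormone in hepatocytes, stood at 11.1 and 13.1 FPKM in KO and at 13.9 and 16.2 FPKM in WT, a difference of -0.29. Socs2, a feedback inhibitor that growth hormone induces, stood at 7.20 and 13.2 FPKM in KO and at 6.53 and 7.43 FPKM in WT (0.44). Bcl6, a repressor of STAT5 targets, differed by -0.30. For Socs2 the libraries of the genotypes overlapped, with KO 2 well above the other 3, and without KO 2 the difference was 0.04.

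Transcription factors known to act on Mup genes or their levels were read likewise, with 14 of 18 tested, 6 higher and 8 lower in KO, and 0 called, with 1 at an unadjusted p under 0.05, again near the 7.29% of all genes (median difference -0.10). Hnf4a, a master regulator of hepatocyte genes, stood at 64.9 and 59.5 FPKM in KO and at 90.4 and 95.8 FPKM in WT, a difference of -0.58 (SE 0.10, limma adjusted p = 0.470). Its KO libraries lay below both WT libraries, as they did for none of the Mup members tested. Hnf4a overlaps the antisense gene Hnf4aos, and the strand setting of the counting is not given. Cebpb differed by -0.26. Zhx2, a zinc finger and homeobox factor whose variants alter Mup levels in mice, stood at 17.8 and 7.38 FPKM in KO and at 7.92 and 8.85 FPKM in WT, so that KO 1 alone stood apart.

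Other genes that mark the male liver were tested beside the cluster. Of 30, 24 were tested, 7 higher and 17 lower in KO, with a median difference of -0.20, and 0 were called by limma, with 2 at an unadjusted p under 0.05. They included Selenbp2 (105 and 150 FPKM in KO, 237 and 254 FPKM in WT; difference -0.96, limma adjusted p = 0.487), which has a near-identical relative, and Hsd3b5 (-0.60), Etnppl (-0.60) and Sult1e1 (0.60), the last an estrogen sulfotransferase. Their summed level was 5033 and 7484 FPKM in KO 1 and KO 2 and 5278 and 7799 FPKM in WT 1 and WT 2, of which Serpina1e alone held 3022 and 4973 FPKM in KO and 2944 and 5223 FPKM in WT. With 1 library left out Hsd3b5 ran from -1.02 to -0.18 and Sult1e1 from 0.17 to 1.04. Female-biased liver genes had 8 of 30 members tested, 4 higher and 4 lower (median -0.28), with 0 called and 3 at an unadjusted p under 0.05, against 7.29% of all genes; Cyp2b10 differed by -1.11, Cyp2c40 by -0.93, Sult1d1 by -0.87 and Cyp4a14 by 1.44. Single libraries set these sizes: Cyp2b10 differed by -1.87 without WT 1 and by -0.36 without WT 2. Cyp4a14 ran from 0.33 to 2.54 with 1 library left out.

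Of 17 other lipocalin and carrier genes, 15 were tested, 4 were higher and 11 lower in KO, 0 were called, 2 had an unadjusted p under 0.05, and the median difference was -0.11. The lipocalin genes of the acute phase Orm1 (1932 and 1640 FPKM in KO, 2519 and 2761 FPKM in WT; -0.57) and Orm2 (-0.95) and the iron carrier gene Lcn2 (-0.65) were the 3 with the largest differences besides Alb, whose value of 0 in WT 2 makes its difference unusable. Among 25 hepatocyte secretory genes 8 were higher and 17 lower, with a median of -0.04 and 0 called or at an unadjusted p under 0.05, and besides Alb the fibrinogen genes Fga (-0.68), Fgb (-0.54) and Fgg (-0.38) had the largest differences. Without WT 2, where Fga stood at 972 FPKM and Fgb at 811 FPKM, those of Fga and Fgb were -0.18 and -0.09, and that of Lcn2 ran from -1.01 to -0.30 with 1 library left out.

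Genes of glucose production and lipid synthesis, to which circulating MUP1 has been linked, were read in 2 lists. Whether each listed gene responds to MUP1 was not tested. Of 10 glucose production genes 9 were tested, with 1 higher and 8 lower in KO, 0 called and 4 at an unadjusted p under 0.05, against 7.29% of all genes (median -0.20). For 6 of the 9 the genotypes did not overlap, against 38.1% of all genes. Pck1 (-1.18), G6pc (-1.004), Slc37a4 (-0.83) and Foxo1 (-0.51) had the largest differences there. Of 10 lipid synthesis genes 7 were higher and 3 lower (median 0.04), led by Scd1 (0.66), Pklr (0.63), Acaca (-0.28) and Dgat2 (-0.195), again with 0 called and 1 at an unadjusted p under 0.05. Without WT 2 the difference of Scd1 was 0.19, and that of Dgat2 ran from -0.33 to -0.05 with 1 library left out.

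Genes flanking the cluster were far lower than its abundant members. Before it lie E130308A19Rik (2.96 and 2.16 FPKM in KO, 2.16 and 2.87 FPKM in WT), Inip and Snx30, and after it Zfp37, Slc31a2 and Fkbp15. Snx30, a sorting nexin gene, stood at 5.97 to 7.0002 FPKM in KO and at 4.32 to 5.34 FPKM in WT, a difference of 0.36 (limma adjusted p = 0.687). The copper transporter gene Slc31a2, at 19.7 and 19.9 FPKM in KO and at 19.2 and 22.3 FPKM in WT, differed by -0.07, Inip by 0.05 and Fkbp15 by 0.01. None of the 5 tested was called by limma. Zfp37, at 0.0129 to 0.169 FPKM, lay under the filter.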

How the data were processed

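Per the labels' protocols, mRNA of 4 cultures of mouse primary hepatocytes was sequenced with a stranded Illumina kit. Cuffdiff 2.2.1, Cufflinks and STAR 2.5.0 stand in the submitters' processing notes beside the build mm10, with no role stated. Which annotation and strand setting were used, and how fragments that match several genes were handled, is not given in the sources used here. In the table that the authors deposited there is 1 value per gene and library, read here as FPKM from these tools and the values, since no header names the unit. Such values are already divided by length and depth, so no count model was used. Depth was estimated from the lowest steps of genes with 1 transcript, assuming fragments of 200 bases; such estimates cover counting only.

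Of 22079 gene identifiers, 22061 matched GENCODE M21 (GRCm38). log2(FPKM + 1) values of 10407 genes (mean FPKM 1 or more) were fitted with limma 3.58.1 in R 4.3.3 (intensity trend, genotype as the only term, two-sided, Benjamini-Hochberg adjusted p under 0.05); members under that mean are described by their values only, and Prom1 by its values. The fit was also run on simulated data with normal noise and 200 of 10407 genes changed. Means came from these data, and spreads were those that limma had already evened out between genes. Changes of 0.5, 1 and 2 on the log2 scale were recovered for 24.1%, 90.8% and 99.8% of the changed genes. Of the calls, 8.11% were false. Such spreads are more alike between genes than the raw ones, so the recovered shares can overstate what the real fit finds. In the real fit Pck1, at -1.18, had a limma adjusted p of 0.239. Transcripts were aligned in pairs with biopython 1.88, and promoter sequences are from RefSeq (GRCm38.p6).

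Named genes were all members, Prom1, Onecut1, the 3 nearest measured coding genes on either side and the 4 genes of each list with the largest differences. For lists of other cell types only sums are given. A few genes that this rule or a list holds are not reported here. The members and lists were chosen with earlier results of these data known. Lists are described by counts and medians, with those of all genes tested given once before them, without a test. Alternatives were other pseudocounts, filters and scalings, no trend, a replicate block, other sums and each library left out.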

Additional observations from a re-analysis of the deposited data

How the results depend on the processing

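Under no alternative was a Mup member called. The count of genes called over the whole table was 0 in all alternatives with 4 libraries and 0 to 8 with 1 library left out: 8 without WT 1, 5 without KO 1 and 0 without WT 2 or KO 2. These fits leave a genotype with 1 library, which is assumed to vary like the pair of the other, so a count of 0 there is no sign of stability. The log2 difference of the summed Mup level was 0.00 and ran from -0.01 to 0.09 under other scalings and other sums, and from -0.29 to 0.30 with 1 library left out, beside a replicate SD of 0.296. The median member difference ran from -0.06 to 0.02 with 4 libraries and from -0.33 to 0.35 with 3.

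The direction of a single member's difference depended on which library was left out. The lowest and highest differences were, for each gene whose sign changed, Mup1 (-0.51 to 0.24), Mup2 (-0.65 to 0.12), Mup3 (-0.35 to 0.22), Mup7 (-0.22 to 0.47), Mup8 (-0.73 to 0.41), Mup9 (-1.09 to 0.43), Mup10 (-0.22 to 0.54), Mup11 (-0.17 to 0.87), Mup12 (-0.85 to 0.61), Mup13 (-0.33 to 0.29), Mup14 (-0.55 to 0.37), Mup15 (-0.81 to 1.96), Mup16 (-1.07 to 0.58), Mup17 (-0.95 to 1.65), Mup18 (-0.40 to 0.89), Mup19 (-1.19 to 1.97), Mup20 (-0.044 to 0.25), Mup21 (-0.27 to 0.80), Mup22 (-0.38 to 0.029), Cyp2c40 (-2.00 to 0.14), Fgg (-0.83 to 0.062) and Zhx2 (-0.16 to 1.004). With a pseudocount of 5 the sign of Mup13 also changed (0.000137). No other alternative turned a member's sign, and the cause was not tested.

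The replicate numbers of the titles pair no samples by any label. Deviations of KO 1 and WT 1 from their group means correlated at 0.15 over 10407 genes. With the numbers as a replicate block 0 genes were called and the median member difference (-0.02) and the sum (0.00) were unchanged by construction, while 1054 genes had an unadjusted p under 0.05 by limma, against 759 without the block. Under the block 1 Mup member had an unadjusted p under 0.05, and the lowest adjusted p of a member was 0.470 (Mup21), against 0.828 without it.

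Depth limits the 3 members under 1 FPKM, and shared sequence limits the 16 near-identical ones. Rescaling to a common total without Alb was added after the data were seen, as were the sum relative to 24 secretory genes and the separate sums of the 2 sequence kinds (0.08 for near-identical and -0.01 for distinct members).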

Other observations

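Of the 30 female-biased liver genes, 12 were listed at 0 in all 4 libraries, against 31.4% of the genes of the table, among them Cyp2b9, Cyp2b13, Cyp3a41a, Sult2a1, Sult3a1 and A1bg. These genes were named after their values were seen.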
